A study of Drosophila melanogaster with 3 samples.

Results

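The genes described here are 35 genes of the Drosophila melanogaster cell cycle and DNA replication machinery, out of 13945 protein-coding genes on the 6 chromosome arms. They were chosen by name for their textbook roles, with earlier results of these data known. By role they comprise 17 genes for replication, 9 genes that control the passage from G1 into S phase, and 9 genes that act in mitosis. Binding of Dip3, a MADF and BESS domain protein encoded by Dlip3, had been mapped by chromatin immunoprecipitation with sequencing (ChIP-seq). The embryos came from a stable transgenic line in which Dip3 carries GFP at its C-terminus, were of mixed sex and 0 to 24 h old, and were precipitated with an antibody against GFP after sonication to 200 to 800 bp. All 3 biological replicates belong to this 1 group, no untagged or untreated group was analysed here, and the replicates show the spread between embryo collections only. A gene is called promoter-bound when the summit of a peak in the thresholded IDR set lies within 500 bp of any of its protein-coding starts (IDR, the irreproducible discovery rate, scores how well regions rank alike across replicates).

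Replicate 3 stood apart before any gene was considered. At a q value of 0.01 or less it listed 8812 regions, against 2480 in replicate 1 and 3226 in replicate 2. Replicates were therefore compared through top lists of equal length, the 3741 strongest regions of each, which is the size of the IDR set. Signal values are the authors' own and were compared only within a list, in which the IDR peaks ran between 85.1 and 2760. Sequencing depth was unknown, because peak lists hold no read counts. In whole embryos, a site bound in few cells and a site bound weakly in many cells cannot be told apart.

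DNA replication starts where the origin recognition complex (ORC) marks the DNA and, with loading factors such as the product of dup, places the MCM helicase there. In flies the genes for these proteins are switched on for S phase by E2f1 with its partner Dp, and are held down by E2f2 and the retinoblastoma protein Rbf. Cyclin and Cdk pairs drive the steps between phases, with CycD, Cdk4, CycE and Cdk2 acting before S phase and CycA, CycB, CycB3 and Cdk1 acting up to mitosis. Many fly promoters of this class carry the DNA replication-related element (DRE), the site of the factor DREF, or the CHR, an element bound through the MuvB complex. Dip3 itself is known to bind Dorsal, a Rel protein of dorsoventral patterning.

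The DNA under 6 of the bound summits is printed to show what the peaks rest on. They are a selection and not the strongest of each role. The windows of Rbf, E2f2 and polo overlap UTRs, that of Rbf the UTR of a neighbouring gene, and are not printed, nor are those of dpa, dup, RnrS, Orc1, lat and Dp. Each line gives the summit base and 50 bases on either side of it in the dm6 genome (RefSeq, Release 6), 5′ to 3′ along the gene's strand. Capitals mark the CHR (TTTGAA or its reverse complement) and the BEAF-32 core (CGATA), which is the core of the site of the insulator factor BEAF-32. Mcm5, Mcm2 and Mcm7 held no word of those searched within these windows, CycE held a CHR and a BEAF-32 core, and aurA and Cdk1 each held a CHR.
Mcm5 (chr3R:10788273-10788373, plus strand): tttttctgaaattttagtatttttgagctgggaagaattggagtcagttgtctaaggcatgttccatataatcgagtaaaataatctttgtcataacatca
Mcm2 (chr3R:8264849-8264949, plus strand): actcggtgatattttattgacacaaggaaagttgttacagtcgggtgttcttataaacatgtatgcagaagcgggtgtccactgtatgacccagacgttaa
Mcm7 (chr3L:8891198-8891298, plus strand): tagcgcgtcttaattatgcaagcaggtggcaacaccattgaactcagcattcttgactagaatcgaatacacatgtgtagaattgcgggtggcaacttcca
CycE (chr2L:15746966-15747066, minus strand): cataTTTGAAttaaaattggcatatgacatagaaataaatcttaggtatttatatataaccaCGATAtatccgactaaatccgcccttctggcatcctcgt
aurA (chr3R:11962924-11963024, plus strand): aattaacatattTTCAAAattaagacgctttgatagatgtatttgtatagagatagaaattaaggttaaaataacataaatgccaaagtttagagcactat
Cdk1 (chr2L:10386459-10386559, minus strand): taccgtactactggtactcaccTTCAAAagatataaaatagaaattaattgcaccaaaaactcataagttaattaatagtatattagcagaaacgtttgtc

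The full DRE was found near a start at 6 of 20 members without an IDR promoter peak and at 1 of 15 bound ones. Over all genes the order was the other way, with 8.44% of unbound and 16.9% of bound genes. The DRE windows of 4 unbound members are printed for comparison. Each line gives 61 bases of dm6 centred on the DRE, read as above. Capitals mark the DRE (TATCGATA), further BEAF-32 cores on either strand and, where present, the CHR or Ohler motif 7. The centre of the DRE lies 197 bp before the start in Orc2, 66 bp in Orc5, 8 bp in CycA and 57 bp in Cdk2.
Orc2 (chr3R:13964658-13964718, plus strand): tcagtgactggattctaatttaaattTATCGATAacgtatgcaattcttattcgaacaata
Orc5 (chr2L:13829741-13829801, plus strand): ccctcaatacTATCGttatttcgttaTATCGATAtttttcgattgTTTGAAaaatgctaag
CycA (chr3L:11833556-11833616, minus strand): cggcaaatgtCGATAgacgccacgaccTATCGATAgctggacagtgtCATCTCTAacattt
Cdk2 (chr3R:20735536-20735596, plus strand): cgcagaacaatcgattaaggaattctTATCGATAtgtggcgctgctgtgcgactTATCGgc

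Dip3 lay at the promoters of 15 of the 35 genes. This share of 42.9% stood beside a background of 20.3% of all protein-coding genes (2834 of 13945), and was not tested, since the list was drawn up with earlier results known. By role, 8 of 17 replication genes (47.1%), 4 of 9 G1/S control genes (44.4%) and 3 of 9 mitotic genes (33.3%) were bound. The top list of replicate 1 placed a summit at 12 members (34.3%), replicate 2 at 15 (42.9%) and replicate 3 at 15 (42.9%), against 17.6%, 19.0% and 21.2% of all genes in the same replicates. The members averaged 40.0% ± 4.95 and all genes 19.3% ± 1.81 (SD, n = 3), so the member share was above the background in each replicate, also with replicate 3 set aside. The same 15 genes made up the IDR count and the count of replicate 2. Replicate 1 lacked Orc1, lat and Cdk1, while replicate 3 lacked CycE and Rbf and added E2f1 and CycA.

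**Figure D1:**
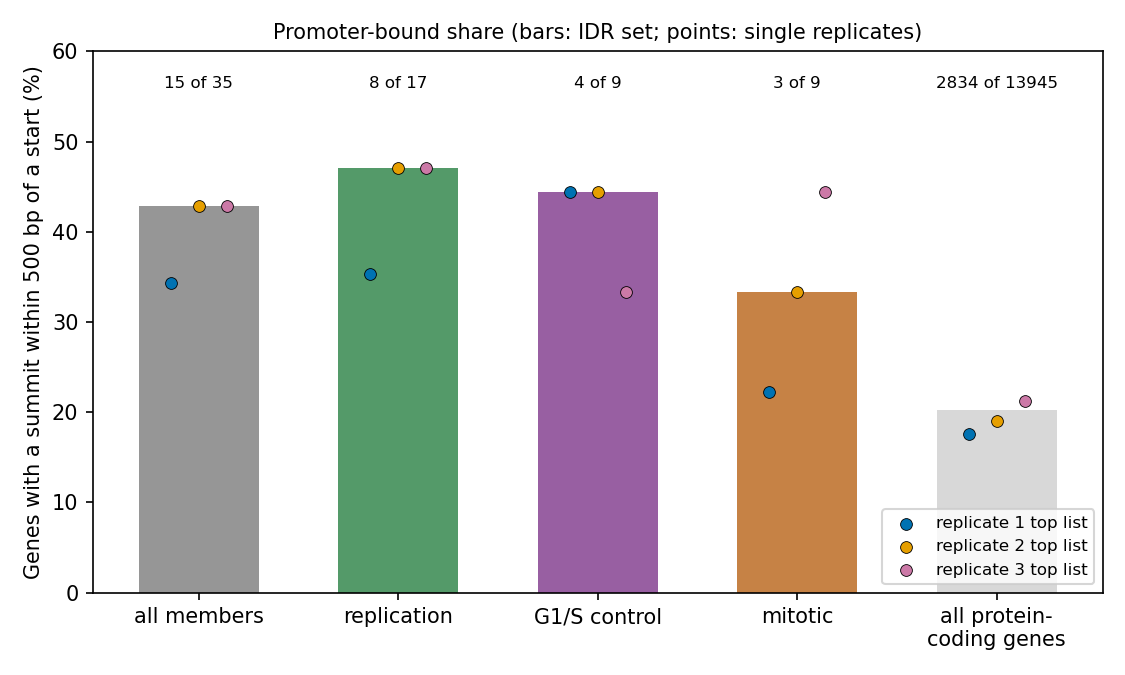
Share of genes (%, linear axis from 0) with a Dip3 summit within 500 bp of a protein-coding start, for the members, their 3 roles and all protein-coding genes. Bars show the IDR set, with its counts above, and points the top list of each replicate; the members' points lie between 34.3% and 42.9%, those of all genes between 17.6% and 21.2%.

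Peaks at the members were of ordinary strength for a bound promoter. The strongest promoter peak of the bound members had a median signal of 162 and a median rank of 1532 in the pooled list, against 158 and 1597 over all bound genes. The median was 190 for bound replication genes, 120 for bound G1/S control genes and 162 for bound mitotic genes. The strongest peak of 11 of the 15 bound members was in the top list of every replicate, beside 61.7% of all bound genes. The exceptions were Orc1, lat, Cdk1 and Rbf.

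Of the 6 subunits of the MCM helicase, the ring that unwinds DNA at the fork, Mcm2, dpa (which encodes Mcm4), Mcm5 and Mcm7 were bound, and Mcm3 and Mcm6 were not. The dpa peak (chr2R:7499906-7500091) had a signal of 377 and rank 325 in the pooled list, and ranks of 222, 457 and 471 in replicates 1, 2 and 3. The Mcm5 peak (chr3R:10788128-10788517) had a signal of 292 and rank 538, with replicate ranks of 816, 1058 and 205. The Mcm2 peak (chr3R:8264821-8264958) had a signal of 238 and rank 800, with replicate ranks of 982, 612 and 1048. These 3 peaks stood in the upper part of every replicate's top list. By its own replicate ranks, dpa was best placed in replicate 1, Mcm5 in replicate 3 and Mcm2 in replicate 2. The Mcm7 peak (chr3L:8891053-8891442) was weaker, with a signal of 138 and rank 1933, and with replicate ranks of 2570, 2647 and 1016. Mcm6 had a weak region at pooled rank 19719, and Mcm3 had no region within 500 bp of its start in any of the lists.

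**Figure D2:**
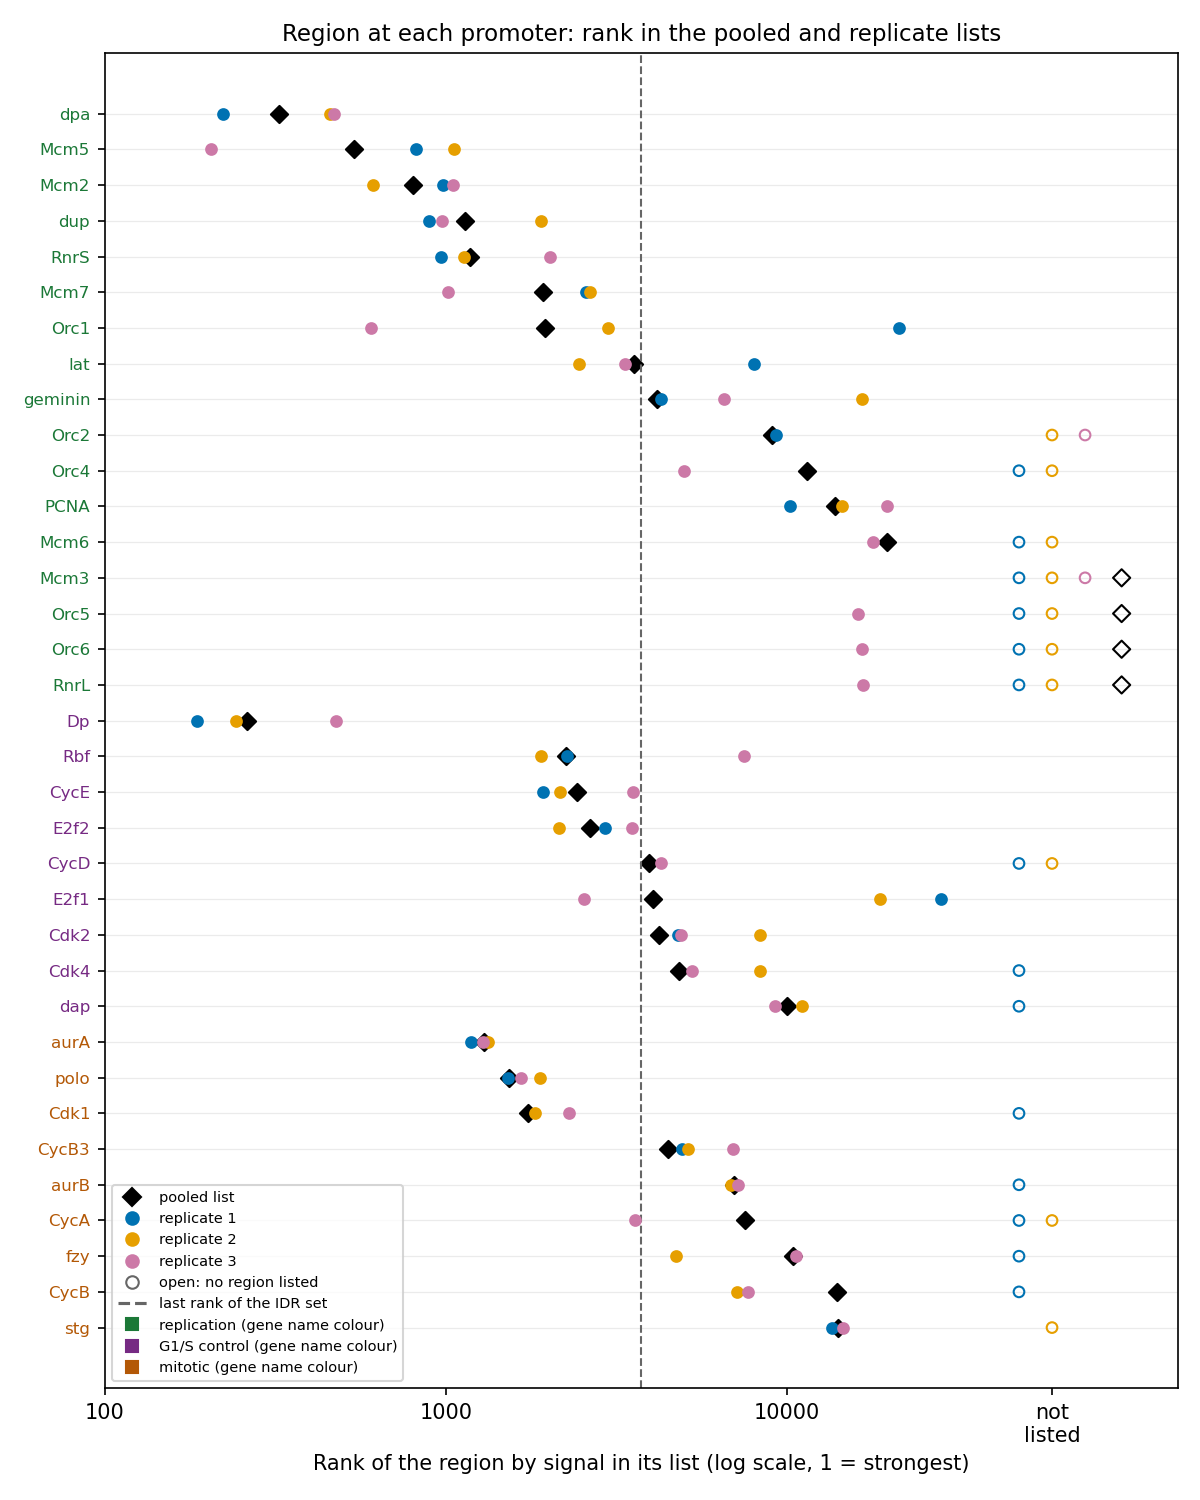
Rank by signal (log axis, 1 is the strongest) of the region at each member's promoter, in the pooled list (diamonds) and in replicates 1 to 3 (circles). For bound members the circles give the strongest replicate region that overlaps the strongest IDR promoter peak. For unbound members all symbols give the strongest region with a summit within 500 bp of a start. Open symbols mark lists that hold no such region. Gene names are coloured by role and the dashed line marks rank 3741, the last of the IDR set. Among the diamonds, those of Dp and dpa lie farthest left. Orc1, lat, Rbf and Cdk1 are the bound genes with a replicate beyond the line or not listed.

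Of the 6 ORC subunits, Orc1 and lat (which encodes Orc3) were bound, and their peaks depended on the replicate. The Orc1 peak (chr2R:7525586-7525975) had a signal of 137 and rank 1953, with ranks of 21401, 2989 and 603 in replicates 1, 2 and 3. It was strong in replicate 3 and far outside the top list in replicate 1. The lat peak (chr2R:13205200-13205589) had a signal of 88.3 and rank 3557, with replicate ranks of 8019, 2462 and 3365. Only replicate 1 placed it outside the top list. Orc2 (rank 9031), Orc4 (rank 11495), Orc5 and Orc6 (both with no pooled region) lay below the threshold, and Orc4 reached a q value of 0.01 in replicate 3 alone.

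Among the remaining replication genes, dup and RnrS were bound and geminin, PCNA and RnrL were not. The peak of dup (chr2R:15380515-15380904), the fly Cdt1 that loads the helicase, had a signal of 192 and rank 1142, with replicate ranks of 892, 1898 and 972. RnrS encodes the small subunit of ribonucleotide reductase, which makes deoxynucleotides. Its peak (chr2R:11985351-11985740) had a signal of 188 and rank 1182, with replicate ranks of 968, 1130 and 2025. Both were in every top list, dup lowest in replicate 2 and RnrS lowest in replicate 3. The partner genes of these proteins lacked an IDR peak. The gene for geminin, the inhibitor of the dup product, had a region at pooled rank 4156, and RnrL, the large reductase subunit, had no pooled region. PCNA, the sliding clamp of the polymerases, had a region at rank 13872.

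Of the 4 E2F and Rb genes of G1/S control, Dp, E2f2 and Rbf were promoter-bound, beside 20.3% of all protein-coding genes. Of the other G1/S control genes only CycE was. This subset was not tested. Dp, the dimer partner of both E2F proteins, held 3 promoter summits and was the only bound member with more than 1. Over all genes, 234 of 2834 bound genes (8.26%) had 2 or more and 23 had 3 or more. The strongest Dp peak (chr2R:13223327-13223516) had a signal of 413, the highest among the members, and rank 262, with replicate ranks of 187, 243 and 477. The other Dp peaks had signals of 203 (rank 1026, replicate ranks 1104, 734 and 2624) and 171 (rank 1399, replicate ranks 2234, 1449 and 877). All 3 Dp peaks were in every top list, and the strongest was also the strongest in each replicate. The peak of E2f2 (chr2L:21156081-21156470), the repressor E2F, had a signal of 110 and rank 2648, with replicate ranks of 2923, 2151 and 3515. The peak of Rbf (chrX:801495-801884), the retinoblastoma protein that binds E2F, had a signal of 123 and rank 2247, with replicate ranks of 2261, 1905 and 7478. E2f2 was weak but listed high enough in every replicate, whereas Rbf dropped out of the top list in replicate 3.

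E2f1, the activator E2F, had no IDR summit at its 5 starts. Its best promoter region had pooled rank 4067, with ranks of 28335, 18748 and 2538 in replicates 1, 2 and 3, so it was in the top list of replicate 3 alone. E2f1 did hold an IDR peak in an intron (chr3R:21627726-21628115), 4772 bp inside the gene from the nearest start, with a signal of 110 and rank 2669. Its replicate ranks of 2744, 2747 and 2765 were the most even among the member peaks. This was the only further summit in a gene body, so 1 of 35 members (2.86%) had one, against 6.25% of all genes. With 200 bp in place of 500 bp left out around starts, 3 of 35 members (8.57%) had one, against 7.47% of all genes, so the order turned. Per 100 kb of gene body, the members held 0.625 and all genes 1.42 such summits, with 1 summit behind the members' value.

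Of the cyclin and Cdk genes that act before S phase, CycE was bound, and CycD, Cdk2, Cdk4 and the inhibitor gene dap were not. The CycE peak (chr2L:15746821-15747210) lay in an intron, 406 bp before the nearest of 3 starts, with a signal of 117 and rank 2430. Its replicate ranks were 1935, 2159 and 3533, lowest in replicate 3. In replicate 3 the summit of the overlapping region lay more than 500 bp from each CycE start, so CycE is not counted as bound there. CycD, Cdk2 and Cdk4 had regions just below the threshold, described with the other unbound members.

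The bound mitotic genes were the kinase genes aurA, polo and Cdk1. The peak of aurA (chr3R:11962779-11963168), the kinase of centrosomes, had a signal of 178 and rank 1297, with replicate ranks of 1185, 1326 and 1283. The peak of polo (chr3L:20309758-20310147), a kinase with many mitotic substrates, had a signal of 162 and rank 1532, with replicate ranks of 1518, 1889 and 1659. Both were alike in all 3 replicates. The peak of Cdk1 (chr2L:10386314-10386703), the mitotic cyclin-dependent kinase, had a signal of 148 and rank 1747, with ranks of 1830 and 2298 in replicates 2 and 3 and no overlapping region in replicate 1. The nearest summit of replicate 1 was 4424 bp away. No cyclin gene of this role was bound, nor stg, fzy or aurB, which encode the Cdc25 phosphatase, the Cdc20 activator of the anaphase-promoting complex (APC/C) and the kinase of the chromosomal passenger complex.

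The shares of replication genes and of mitotic genes overlapped in their ranges over the replicates. In the top lists, 35.3%, 47.1% and 47.1% of replication genes were bound in replicates 1, 2 and 3, against 22.2%, 33.3% and 44.4% of mitotic genes. The difference was 13.1, 13.7 and 2.61 percentage points, or 9.80 ± 6.23 (SD, n = 3), and 13.7 points in the IDR set. A single mitotic gene is worth 11.1 points. The difference was thus little more than 1 gene in replicates 1 and 2 and well under 1 gene in replicate 3. In the upper 50% of IDR peaks by signal its direction turned, with 5 of 17 replication genes (29.4%) and 3 of 9 mitotic genes (33.3%) bound. Among the further pathway genes the order in the IDR set was also the other way, and was not tested. There 8 of 29 replication fork genes (27.6%) and 12 of 32 spindle checkpoint, APC/C and kinetochore genes (37.5%) were bound. Over all genes 20.3% were bound.

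The bound summits lay on the upstream side of the start. All 15 strongest promoter summits were upstream of the nearest start, at a median of 150 bp and between 44 and 406 bp before it, against 89.3% of all bound genes with a median of 120 bp. The only downstream summit was a weaker one of Dp, 404 bp after a start. In 7 of the 15 genes (46.7%) this upstream position still fell inside the annotated gene, after its outermost start, against 24.1% of all bound genes. They were dpa, lat, dup, CycE, Dp, E2f2 and polo, and the summit of lat, for example, lay 58 bp before an inner start and 1152 bp after the outer one.

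**Figure D3:**
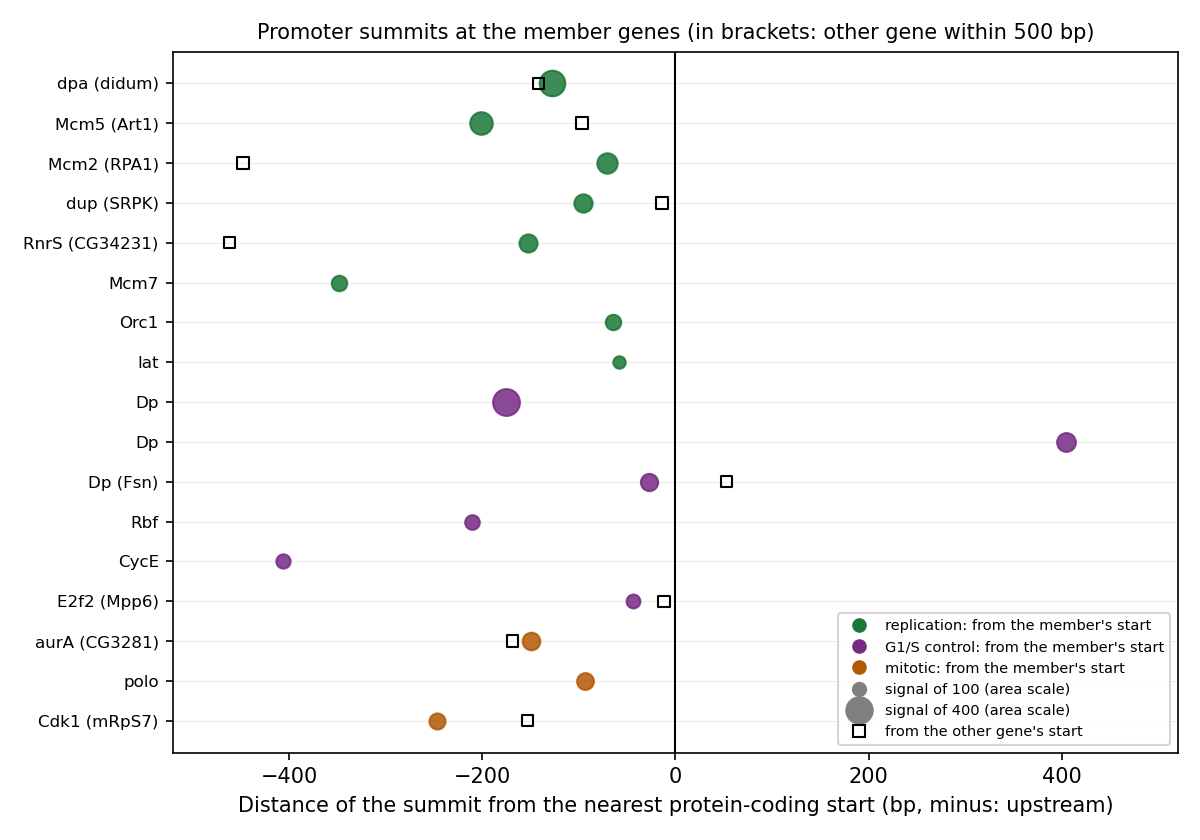
Distance in bp of each of the 17 promoter summits of the 15 bound members from the member's nearest protein-coding start (circles, coloured by role, area in proportion to signal; minus is upstream). Squares give the distance from the nearest start of another gene within 500 bp, named in brackets; the strongest summit of every bound member lies left of 0, and 1 further Dp summit lies right of it.

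Many of these peaks cannot be assigned to the member alone. The strongest summit of 8 of the 15 bound members was also within 500 bp of a start of another protein-coding gene, beside 60.5% of all bound genes. It was 448 bp before RPA1, which encodes the large subunit of the single-strand binding protein of replication, in the case of Mcm2. In the case of Mcm5 it was 97 bp before Art1, an arginine methyltransferase gene, nearer than to the start of Mcm5. The neighbours at the other 6 were didum for dpa, SRPK for dup, CG34231 for RnrS, mRpS7 for Cdk1, Mpp6 for E2f2 and CG3281 for aurA. The SRPK start was 14 bp, the Mpp6 start 12 bp and the mRpS7 start 153 bp from the summit, nearer than those of dup, E2f2 and Cdk1. Mcm7, Orc1, lat, CycE, Rbf and polo shared no promoter summit with another gene, nor did the strongest of Dp.

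Gene arrangement moved with the binding, so the members were also set against genes with like neighbours. Of 20 members with a start of another gene within 1000 bp of one of their own, 10 (50%) were bound, against 33.4% of such genes overall. Of 15 members without, 5 (33.3%) were bound, against 10.5%. Members had 1.63 protein-coding starts on average and all genes 1.41. Of the 22 members with 1 start, 8 (36.4%) were bound, against 15.8% of such genes overall. The member share was above that of like genes in each of these strata, and the part of gene arrangement in the binding was not tested further.

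Several unbound members had regions that fell just short of the IDR set, whose last peak had a signal of 85.1. Of the 20 unbound members, 5 (25%) had a pooled region with a q value of 0.01 or less within 500 bp of a start, against 4.03% of unbound genes overall. They were CycD (signal 81.3, rank 3941), E2f1 (79.2, rank 4067), geminin (78.0, rank 4156), Cdk2 (77.1, rank 4222) and CycB3 (73.5, rank 4487). With Cdk4 (69.4, rank 4848), 6 of 20 (30%) ranked 5000 or better, against 5.18%. Of these 6 genes, 4 belonged to the 5 unbound G1/S control genes, CycD and Cdk4 for the G1 kinase, Cdk2 for the partner of CycE, and E2f1.

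By q value, replicate 3 carried much of this weaker signal, and it also listed the most regions at that q value genome-wide. No unbound member had a region of that q value in replicates 1 or 2, against 0.351% and 1.26% of unbound genes, while 10 of 20 (50%) had one in replicate 3, against 22.2%. CycD, which pairs with Cdk4, had a region at rank 4280 in replicate 3 and none in replicates 1 and 2. CycA, the cyclin of S phase and early mitosis, likewise had one at rank 3580 in replicate 3 alone. CycB3 instead had replicate ranks of 4931, 5141 and 6975, Cdk2 of 4796, 8328 and 4896, and geminin of 4275, 16628 and 6544. These genes had a region in every replicate, and each ranked better in replicate 1 than in replicate 3.

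The remaining unbound members were far from the threshold in the pooled list. There aurB was at rank 7003, CycA at 7561, dap at 10034, fzy at 10457, CycB at 14084 and stg at 14170. In single replicates some stood nearer, with CycA at rank 3580 in replicate 3, within its top list, and fzy at rank 4748 in replicate 2. Of the 20 unbound members, 4 (20%) had no pooled region within 500 bp, against 65.5% of unbound genes overall. These were the replication genes Mcm3, Orc5, Orc6 and RnrL. RnrL, Orc5 and Orc6 had a region in replicate 3 alone, at ranks 16695, 16225 and 16680, which are low in a list of 30000 regions.

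The E2F site, the DNA word read by E2F and Dp, was searched as TTTCCCGC, TTTCGCGC, TTTGCCGC or TTTGGCGC on both strands from 250 bp before to 50 bp after each start. It was present at 8 of 15 bound members (53.3%) and 8 of 20 unbound members (40.0%), against 11.4% of bound and 7.99% of unbound genes overall. It went with the replication role, in 13 of 17 replication genes (76.5%), 1 of 9 G1/S control genes and 2 of 9 mitotic genes. Over all genes 8.69% held it. Bound and unbound members thus differed by less than members and other genes did.

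E2F sites lay mostly beside the summits and less under them. Within 50 bp of the summit, 2 of 17 member promoter windows (11.8%, those of dpa and lat) held an E2F site. Over all 2147 IDR promoter windows the share was 1.63%, and in windows 500 bp away it was 2.10%. At each of the 8 bound members with a site near a start, the nearest site lay downstream of the summit, on the side of the start. The distance along the gene from the summit to this site was 34 bp in lat, 44 bp in dpa, 71 bp in Orc1, 77 bp in dup, 102 bp in RnrS, 111 bp in Mcm2, 237 bp in Mcm5 and 295 bp in CycE. Since all of these summits lay upstream of the start, the search window itself favours this side.

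The DRE showed another pattern. From 250 bp before to 50 bp after a start, it was present at 1 of 15 bound members (6.67%, lat) and 6 of 20 unbound members (30%), against 16.9% of bound and 8.44% of unbound genes overall. The unbound members were Orc2, Orc5, PCNA, Cdk2, Cdk4 and CycA, of which Orc2, Orc5, CycA and Cdk2 are printed above. In lat the DRE lay at the outer start, 1297 bp from the summit. Among all genes the bound ones held it at a higher share, and among the members the unbound ones did. The member counts behind this are 1 and 6 genes, and the difference was not tested. No member summit window held a DRE, against 4.75% of all IDR promoter windows and 0.489% of windows 500 bp away.

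Other promoter words stood as follows. Ohler motif 1, the site of the factor M1BP, was at 0 of 15 bound and 6 of 20 unbound members (Mcm3, Orc5, CycB, CycB3, aurB and fzy), against 7.73% of bound and 4.26% of unbound genes. The CHR was at 60% of bound and 60% of unbound members, against 51.4% and 44.7%. In the summit windows it was at 5 of 17 (29.4%: lat, CycE, Cdk1, polo and aurA), against 16.9% of IDR promoter windows and 8.38% of windows 500 bp away. The BEAF-32 core was in 4 of 17 member summit windows (23.5%) and 26.7% of IDR promoter windows. This core lies within the DRE, so each DRE is also counted for it. Ohler motif 7, searched as CAGCNCTA, CAGCNCTG, CATCNCTA or CATCNCTG, was in no member summit window, against 13.1%, though it was near the starts of 46.7% of bound and 50% of unbound members, against 40.3% of bound and 17.9% of unbound genes. The median GC content of the summit windows was 39.6% at members and 36.6% at all IDR promoters. A word match is a description of the sequence and not a measured site.

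**Figure D4:**
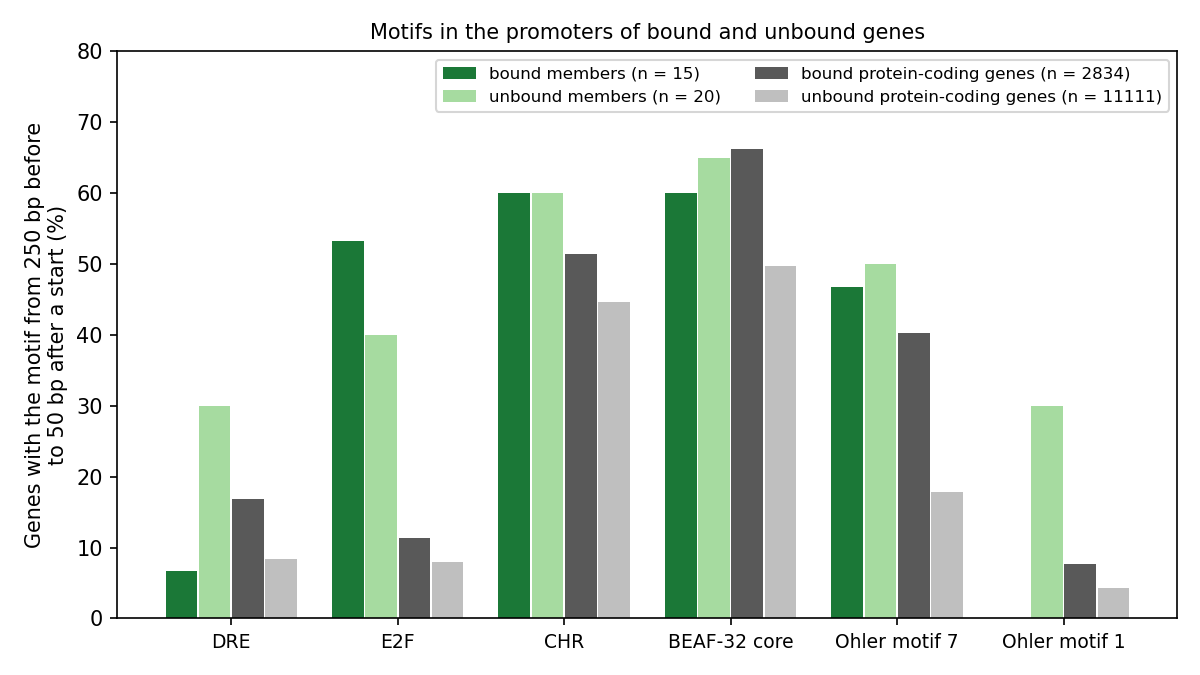
Share of genes (%, linear axis from 0) with each word from 250 bp before to 50 bp after a protein-coding start, for the 15 bound members, 20 unbound members, 2834 bound genes and 11111 unbound genes. The E2F site stands at 53.3% and 40.0% of bound and unbound members, against 11.4% of bound and 7.99% of unbound genes. The DRE stands at 6.67% of bound and 30% of unbound members, against 16.9% of bound and 8.44% of unbound genes.

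Beyond the 35 members, 38 of 106 further genes of the same pathways (35.8%) were promoter-bound, against 20.3% of all genes. Without replicate 1 the count was 23 (21.7%), against 14.5%. They came from 5 lists. Of the E2F and Myb-MuvB complexes 4 of 9 were bound (44.4%), led by Rbf2 (signal 278), the second fly Rb protein, Dref (249), the gene of the DRE-binding factor itself, and mip130 (180), a MuvB subunit. Of checkpoint and Cdk regulators 9 of 22 were bound (40.9%), led by tefu (228) and mei-41 (183), the fly ATM and ATR kinases, and fzr (174), the Cdh1 activator of the APC/C. Of spindle checkpoint, APC/C and kinetochore genes 12 of 32 were bound (37.5%), led by sti (481), the citron kinase of cytokinesis, then the APC/C subunit gene Cdc16 (213) and the spindle checkpoint gene Bub3 (203).

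Of cohesin and condensin genes 5 of 14 were bound (35.7%), led by the condensin genes SMC2 (409), Cap-D2 (203) and Cap-H2 (198). Of replication fork proteins 8 of 29 were bound (27.6%), led by RPA1 (238), PolD2 (230), a subunit of DNA polymerase delta, and Top1 (220), topoisomerase I. The RPA1 peak is the Mcm2 peak. With 20.3% of all genes bound, the share of the fork proteins was near the background. The lists were not tested against each other.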

How the data were processed

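The data are ChIP-seq peak lists for Dip3 fused to GFP, from whole embryos, 3 biological replicates of 1 group, numbered as in the labels. Per the file headers, the authors called regions on each replicate and on the pooled replicates and made the IDR set from these lists. For the aligner, the peak caller and the IDR cutoff, names and versions were not given in the sources used here. Each deposited region carries a signal value of the authors' caller, used to rank and filter within a list, and a −log10 q value. The deposited replicate lists hold 30000 regions each and include weak regions, the pooled list holds 23524, and the IDR set equals its 3741 strongest. No region was identical between replicates. Per the labels, replicates are biological, and their read depth is unknown.

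Positions are on dm6, counted from 1, with Ensembl release 115 annotation (BDGP6 patch 54) and RefSeq Release 6 sequence. The 13945 protein-coding genes of the 6 arms have 19607 starts. Members were matched by name, 34 of 35, and lat by hand as Orc3, because that synonym is shared with another gene. Of 106 further pathway genes all matched. An IDR peak was matched to the strongest overlapping replicate region (at least 1 bp). Scripts ran in Python 3.11 with numpy 2.4.6 and were tested on simulated data. Counts are descriptive and no statistical test was made, since there is 1 group and the members and lists were chosen with earlier results of these data known. All members are named, and of each further list the 3 bound genes with the highest signal. The search from 250 bp before to 50 bp after starts and the split by neighbouring starts were added after seeing the data. The dm3 lists, the control sample and the signal tracks were not used here.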

Additional observations from a re-analysis of the deposited data

How the results depend on the processing

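Of 68 values from alternative settings over 13 counts, 51 stayed within 1.5 times the value given above and 17 did not. The count of 15 bound members was 10 within 200 bp, where 14.8% of all genes were bound, and 16 within 1000 bp (23.2%), which added Cdk4. In the upper 50% of IDR peaks by signal it was 9 (11.7%), with 5 replication genes, 1 G1/S control gene and 3 mitotic genes, while 22 further pathway genes were bound and 0 members, against 3.36% of all genes, had a gene-body summit. Requiring a q value of 0.01 or less in every replicate left 5 replication genes (beside 12.2% of all genes). Within 200 bp, 2 G1/S control genes were bound and 3 members (beside 7.47% of all genes) had a gene-body summit. Replicate support of 11 members fell to 7 with a reciprocal overlap of 50% and to 7 with the top 2000 regions. The matching shares of all bound genes are not given here, so these falls cannot be read as particular to the members. Among the 17 summit windows, 100 bp on either side of the summit gave 8 with a BEAF-32 core (47.1%, against 41.8% of IDR promoter windows). It gave 4 with an E2F site (23.5%, against 4.15%), 8 with a CHR (47.1%, against 31.7%) and 3 with Ohler motif 7 (17.6%, against 23.5%). With 25 bp on either side, 0 held an E2F site (against 0.652%) and 1 a CHR (5.88%, against 7.59%). At this narrow width the order of the CHR shares turned. Leaving out a replicate meant keeping the IDR peaks found in both other top lists. With 14.5%, 13.6% and 14.7% of all genes bound without replicates 1, 2 and 3, this gave 11 to 14 members (12 without replicate 3), 6 to 8 replication genes, 3 to 4 G1/S control genes, 2 to 3 mitotic genes, 1 member with a gene-body summit each time, and 23 to 28 further pathway genes, the lowest without replicate 1. The cause of these shifts was not tested, and depth, which peak lists do not hold, limits how firmly weak peaks such as that of lat can be read.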

Other observations

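Some strong peaks in this pathway lay outside the 35 members and were in the top list of every replicate. The sti peak had a signal of 481 and rank 172 in the pooled list, with ranks of 152, 138 and 275 in replicates 1, 2 and 3. It stood above each member peak in the pooled list and in replicates 1 and 2. In replicate 3 the Mcm5 peak stood above it, at rank 205. The SMC2 peak (signal 409, rank 268) had replicate ranks of 299, 280 and 245, close to one another. At Rbf2 (signal 278, rank 596) the replicate ranks were 608, 629 and 598. The promoter of Dref, the gene for the DRE-binding factor, had a signal of 249 and rank 740, with replicate ranks of 843, 1014 and 486, highest in replicate 3.

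Some peaks lay at the starts of 2 genes of the pathway. The spindle checkpoint gene Bub3 and the condensin gene Cap-D2 shared a peak of rank 1027, which lay 126 bp before the Bub3 start and 104 bp before the Cap-D2 start. Its replicate ranks were 955, 1283 and 992. The checkpoint kinase gene lok and the condensin gene barr shared a peak of rank 2997, 206 bp before the start of lok and 154 bp after that of barr, with replicate ranks of 1641, 3581 and 7449.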
